A study of Onthophagus taurus with 66 samples.

Results

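The transcripts described here are those most enriched in the medial posterior dorsal head (MP) of the horned beetle *Onthophagus taurus*, in males and females together. They were chosen from measured values. Each of 23725 transcripts was averaged over 11 animals as log2(CPM + 1), where CPM is a count scaled to its library's TMM-adjusted total, and ranked by its level in MP minus the highest of its levels in the lateral posterior (LatP), lateral anterior (LatA) and medial anterior (MA) head. The first 60 were taken, and 4 of them were left out by name (among them a muscle actin and a transcript of *muscle protein 20*), which gave 56 transcripts. Their margins over the next region ran from 2.77 down to 1.17 on the log2 scale. At the edge of the list, XM_023046358.1 was the last inside, with a level of 3.31 in MP and a margin of 1.17, and XM_023048383.1 was the first outside, with a level of 5.00 in MP and a margin of 1.17. Because MP levels chose the list, every comparison of MP with another region below is a description and carries no test.

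The libraries come from 6 males and 5 females of laboratory colonies founded with field-collected beetles, all heavy larvae in the last hours before pupation (pre-pupae), with no treatment and no genetic manipulation. Each dorsal head was divided into 6 pieces, MP, left and right LatP, left and right LatA, and MA, and each piece gave 1 library, 66 in all. According to the methods, the larval cuticle was taken off and sub-epithelial tissue such as brain and muscle was removed, so that epithelium remained. Lateral values are the average of both sides of an animal.

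The dorsal head epithelium of a beetle pre-pupa is the sheet that builds the adult head and, in this species, the posterior head horns of large males. Insect epidermis carries attachment sites for muscles, where tendon cells anchor the muscle fibres to the cuticle. A muscle fibre contracts when calcium binds troponin C, and troponin I, troponin T and tropomyosin then release the interaction of actin with myosin, whose light chains and paramyosin belong to the thick filament. The *pannier* gene encodes a GATA transcription factor, which in *Drosophila* patterns the dorsal midline of the body and the dorsal head.

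Library totals ran from 10807956 to 17048942 counts, and a floor of 3 counts was worth 0.176 to 0.278 CPM. These floors cover counting error only. A library of male 1, its right LatA, stood apart. Every male LatA or MA library was set against the difference between the means of LatA and MA in other males, across expressed transcripts. The right LatA library of male 1 leaned towards MA (r = -0.09, against 0.02 to 0.20 in the other 11 male LatA libraries). The MA library of male 1 leaned furthest towards LatA of the male MA libraries (r = 0.085). It was close to the next, that of male 3 (0.076), and the lowest was that of male 4 (-0.096). Without both libraries 53 of the 56 transcripts stayed on the list. Males alone kept 46 of the 56 and females alone 29, so the list is closer to the ranking in males. On the list, 23 transcripts were highest in MP in all 11 heads. In 1 of the 56, XM_023051557.1, the lowest MP value (10.05 CPM) lay above the highest value of any other region (8.97 CPM). The ranking on MP favours both counts, and no share over all transcripts was counted beside them.

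**Figure D1:**
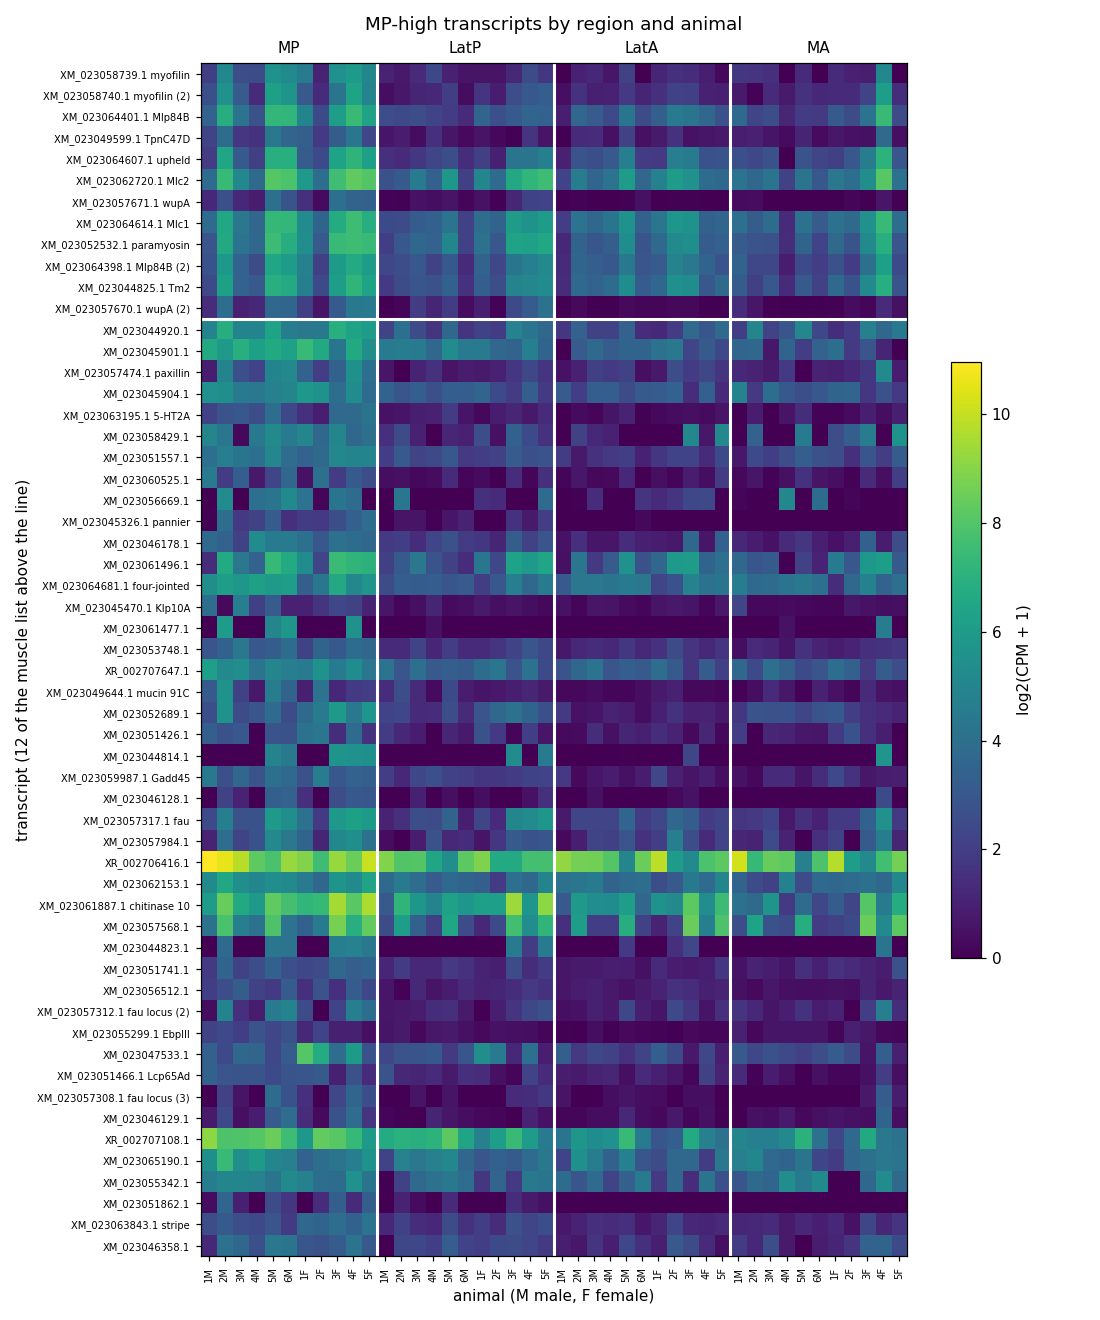
Levels of the 56 MP-high transcripts as log2(CPM + 1), the colour scale, in each region (column blocks) of each of 6 males (M) and 5 females (F). The 12 transcripts of the muscle list stand above the white line. Their MP columns are dark in female 2 and male 1, where 3 and 4 of the 12 were highest in MP, while 30 and 33 of the 44 rows under the line were highest in MP in those heads.

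Transcripts of the contractile apparatus made up 12 of the 56. They were found through a list of muscle gene names, and the names come from the study's table of transcripts it called different on these samples, so their number is not independent evidence of a direction. *Myofilin*, which encodes a thick filament protein, led the whole list with a pair of isoforms. The first (XM_023058739.1) ranged from 1.05 to 60.7 CPM in MP (median 31.4), while its medians were 1.15 CPM in LatP, 1.01 CPM in LatA and 1.46 CPM in MA. The other (XM_023058740.1) ranged from 1.52 to 82.4 CPM in MP, with medians of 17.4 CPM in MP and 1.51 to 1.56 CPM elsewhere. MP exceeded all other regions in 10 of 11 heads for both.

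The thin filament was represented by troponins and tropomyosin. *TpnC47D* (XM_023049599.1), a troponin C, had a median of 8.53 CPM in MP (2.00 to 20.2) and 0.504 to 0.757 CPM in the other regions. *upheld* (XM_023064607.1), which encodes troponin T, had 72.6 CPM in MP (2.92 to 138) and 3.71 CPM in LatP, 6.19 CPM in LatA and 5.54 CPM in MA. A pair of isoforms of *wings up A* (*wupA*), the troponin I gene, was nearly limited to the posterior head. The first (XM_023057671.1) had a median of 5.33 CPM in MP, 0.531 CPM in LatP, 0.0142 CPM in LatA and 0.0131 CPM in MA. The other (XM_023057670.1) had 7.73 CPM in MP, 1.41 CPM in LatP, 0.119 CPM in LatA and 0.154 CPM in MA, so that both anterior medians were under the floor. All 8 transcripts of the *wupA* locus together had 37.3 CPM in MP, 8.27 CPM in LatP, 10.6 CPM in LatA and 5.98 CPM in MA, so the gene itself was not limited to the posterior head. *Tropomyosin 2* (XM_023044825.1) had 68.8 CPM in MP (4.35 to 145) and 7.19 to 12.3 CPM elsewhere, but was highest in MP in 7 of 11 heads only.

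Thick filament and Z-disc genes showed the same spread. The highest level on the muscle list was that of *Mlc2* (XM_023062720.1), the regulatory light chain of myosin, with a median of 174 CPM in MP (12.7 to 312), 31.1 CPM in LatP, 17.7 CPM in LatA and 17.2 CPM in MA. The alkali light chain *Mlc1* (XM_023064614.1) had 92.2 CPM in MP and 12.1 to 17.2 CPM elsewhere. *Paramyosin* (XM_023052532.1), which forms the core of the thick filament, had 99.6 CPM in MP, 15.02 CPM in LatP, 10.4 CPM in LatA and 6.34 CPM in MA. *Mlp84B*, a LIM domain protein of muscle, had an isoform (XM_023064401.1) with 69.9 CPM in MP and another (XM_023064398.1) with 57.1 CPM in MP, against medians from 4.52 to 9.32 CPM in the other regions. The lowest MP values of each of these genes overlapped the values of the other regions.

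To ask which of the 56 rise only in pieces rich in muscle transcripts, a muscle level was computed for every library from 6 muscle transcripts that are not on the list, as the mean of their log2(CPM + 1). They come from the same study table, and the actin and 1 of the *muscle protein 20* transcripts are among those left out by name, at ranks 18 and 1. The 6 are another troponin C, another troponin T isoform, the actin, the calcium pump SERCA and a pair of *muscle protein 20* transcripts. This level was 2.02 to 5.34 in the 11 MP libraries (median 4.15) and 0.932 to 4.34 in the 55 others (median 1.96). MP was the region with the highest muscle level in 10 of 11 heads, a description, since each of the 6 was highest there on average. In female 2 the MP piece had a muscle level of 2.02 and the LatA pieces 2.98. In female 4 the MA piece reached 4.34, the highest outside MP. In bulk pieces, more muscle cells and more muscle RNA per cell cannot be told apart.

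The heads differed in how much of the list was highest in MP, and the lowest counts lay in heads with a low muscle level of the MP piece. The muscle level is made from genes of the same list as the 12, so this is a description. In female 2, 3 of the 12 muscle-list transcripts were highest in MP, and 30 of the other 44. In male 1, whose MP piece had a muscle level of 2.80, the numbers were 4 of 12 and 33 of 44. In male 4, with 2.59, they were 7 of 12 and 33 of 44. In male 3, with 2.93, they were 10 of 12 and 35 of 44, so the counts of the 12 did not follow the level strictly. In female 4, with 5.34, all 12 muscle-list transcripts and 42 of the 44 others were highest in MP.

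**Figure D2:**
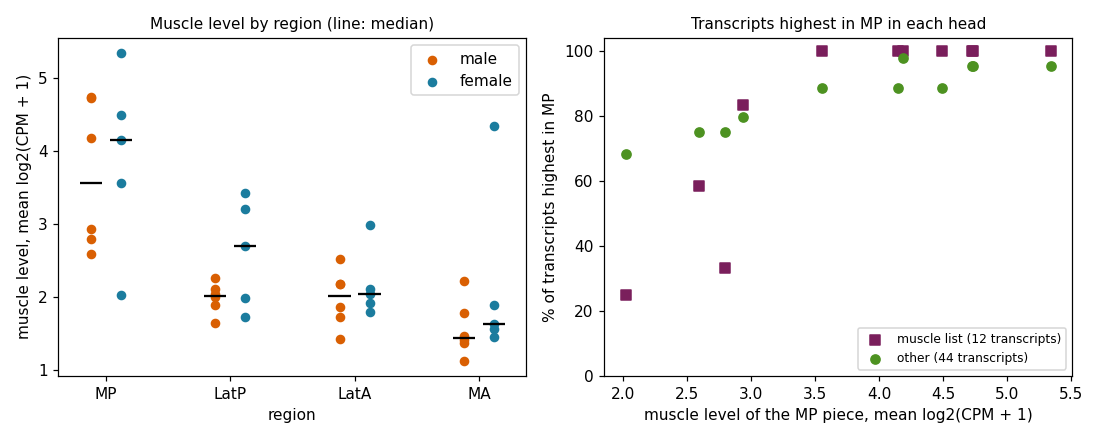
Left, muscle level (mean log2(CPM + 1) of 6 muscle transcripts outside the list) of each animal by region, males left of females, with the median as a line. Right, the percentage of the 12 muscle-list transcripts (squares) and of the 44 others (circles) that were highest in MP in each of the 11 heads, against the muscle level of the MP piece. In female 2, at a muscle level of 2.02, 3 of 12 and 30 of 44 were highest in MP.

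Slopes on the muscle level were tested with edgeR, once over the 11 MP libraries with sex in the model and once over the 55 libraries outside MP with a term for each sex and region. A slope is the log2 change per unit of muscle level. Among MP libraries 10 of the 12 muscle-list transcripts were called at an adjusted p under 0.05, with slopes from 1.00 to 2.02 over the 12, and outside MP 11 of 12 were called. The exceptions were the first *wupA* isoform (XM_023057671.1, adjusted p = 0.0717 within and 0.121 outside MP) and, within MP, *TpnC47D* (XM_023049599.1, adjusted p = 0.170). The muscle level is itself made from genes of the muscle list, another troponin T isoform among them. Calls of these 12 are therefore a description and do not count as results of the test. Of the 44 other transcripts, 4 were called among MP libraries, all with a positive slope (9.09% of the 44), where 0.198% of 12649 transcripts tested had a positive call. Outside MP 10 of 42 tested were called (23.8%), where 3.03% of 15269 were called with a positive slope. These shares count transcripts of a locus separately. A pair from LOC111423918 is in both counts, and a pair from LOC111413729 is in the count outside MP. The median slope of the transcripts not on the muscle list was 0.42 within MP and 0.44 outside it, beside 0.01 and 0.02 over all transcripts tested. No negative slope was called among them, where outside MP 1.39% of all transcripts were called negative. In all, 12 of the 44 were called in either test. DESeq2 called 13 of the 44 within MP (29.5%, where it called 1.68% of 12649), including the 4 and, from outside the 12, *chitinase 10*, XM_023057568.1 and XM_023057308.1. Without female 2 or without male 4 edgeR called 1 within MP, and without female 2 it called 6 outside MP.

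*fau*, annotated as anoxia up-regulated, had the lowest adjusted p of these 12 in both tests. The transcript that carries the name (XM_023057317.1) had 2.68 to 74.0 CPM in MP (median 25.6), 0.899 to 59.3 CPM in LatP, 0.747 to 12.9 CPM in LatA and 0.677 to 46.0 CPM in MA. The slope was 1.60 ± 0.16 within MP (SE, adjusted p = 0.00336, edgeR) and 2.27 ± 0.21 outside it (adjusted p = 2.67e-11). In female 2 it stood at 2.68 CPM in MP and 12.9 CPM in LatA, and in female 4 at 74.0 CPM in MP and 46.0 CPM in MA. Another transcript of the same locus (XM_023057312.1, 0 to 30.4 CPM in MP) was called in both tests as well, though within MP only under 4 of 15 alternatives. The third (XM_023057308.1, 0 to 13.7 CPM in MP) was called in neither, with adjusted p = 0.0726 within MP and 0.102 outside it. Summed over the 12 transcripts of the locus, MP had a median of 76.0 CPM, against 9.81 CPM in LatP, 7.99 CPM in LatA and 5.16 CPM in MA.

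*Paxillin* (XM_023057474.1), a scaffold of integrin adhesions and of muscle attachment, had 0.789 to 44.8 CPM in MP (median 9.94), 0 to 4.23 CPM in LatP, 0.460 to 6.28 CPM in LatA and 0 to 36.8 CPM in MA, where the highest MA value was that of female 4. Its slope outside MP was 1.5 ± 0.36 (SE, adjusted p = 0.00657, edgeR). Without the MA library of female 4, an alternative chosen after the data were seen, the slope was 1.31 (adjusted p = 0.0947), and without the whole of female 4 or of female 2 the adjusted p was 0.127 or 0.058. *stripe* (XM_023063843.1), the transcription factor of tendon cells in *Drosophila*, was highest in MP in all 11 heads, at 2.67 to 17.3 CPM (median 7.64), against 2.98 CPM in LatP, 1.35 CPM in LatA and 1.2995 CPM in MA. It had a slope of 0.85 ± 0.20 outside MP (SE, adjusted p = 0.00457, edgeR) against 0.48 without female 2 (adjusted p = 0.407), and it was not called within MP. A monocarboxylate transporter 12-like transcript (XM_023053748.1) had the lowest called slope, 0.60 ± 0.16 outside MP (SE, adjusted p = 0.0219, edgeR), which was lost with the animal as replicate block (0.43, adjusted p = 0.106) and without female 1, female 2 or male 5 (adjusted p = 0.123, 0.379 and 0.0751), and it too was highest in MP in all 11 heads.

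The remaining 7 of the 12 have no gene name in the tables used here. A pair of transcripts of LOC111426781 belongs to them. XM_023061496.1 had a median of 102 CPM in MP (1.63 to 177), 8.46 CPM in LatP, 11.9 CPM in LatA and 7.52 CPM in MA, and a slope of 1.87 ± 0.40 outside MP (SE, adjusted p = 0.00211, edgeR). XM_023061477.1 stood at 66.2, 31.1, 55.03 and 45.6 CPM in the MP pieces of males 2, 5, 6 and female 4 and at 0 in the other 7, and its call within MP was kept under 6 of 15 alternatives. LOC111414704 gave XM_023046128.1 (0 to 9.93 CPM in MP) and XM_023046129.1 (0.218 to 14.3 CPM in MP), of which the second had a slope of 1.88 ± 0.24 within MP (SE, adjusted p = 0.0136, edgeR) and the first was called outside MP, a call lost by DESeq2 (adjusted p = 0.311) and, with edgeR, without female 4, its MA library or female 5 (adjusted p = 0.0785, 0.0594 and 0.0542). XM_023057984.1 had 1.12 to 43.7 CPM in MP and reached 29.4 CPM in the LatA pieces of female 2. LOC111413729, the immediate neighbour of the *tropomyosin 2* gene in the reference, gave XM_023044814.1, at 20.7 to 50.5 CPM in 5 MP pieces and at or near 0 in the other 6, and XM_023044823.1, at 12.7 to 28.4 CPM in 6 MP pieces and at 0 in 5.

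**Figure D3:**
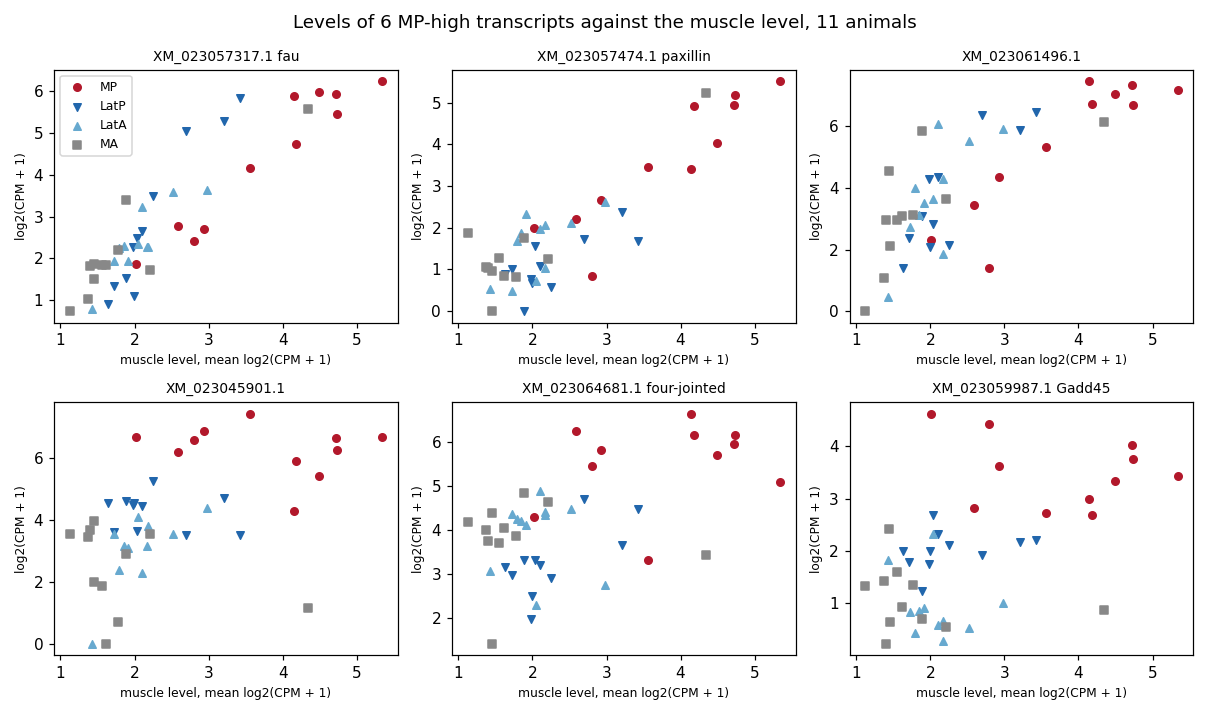
Level, as log2(CPM + 1), of 6 MP-high transcripts against the muscle level (mean log2(CPM + 1)) of the same piece, for MP (circles), LatP (triangles down), LatA (triangles up) and MA (squares) of 11 animals. In the upper row (fau, paxillin and XM_023061496.1) levels rise with the muscle level, and the MA piece of female 4 at a muscle level of 4.34 lies near the MP pieces of like muscle level. In the lower row (XM_023045901.1, four-jointed and Gadd45) MP lies above most other pieces at low and high muscle levels.

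A fit over all 66 libraries gave the MP excess, the log2 difference between MP and the mean of the other regions, without and with the muscle level as a term. It is a description, since MP levels chose the list and called slopes on the muscle level define the classes, and for transcripts near 0 outside MP the fitted value depends on the prior count. Over the 12 muscle-list transcripts the median excess was 2.74 without the muscle level and -0.78 with it, and 8 of 12 were below 0 with it. The 12 others with a called slope had medians of 2.72 and -1.01, and 9 of them were below 0. The 32 transcripts with no called slope had medians of 2.45 and 2.20. With the muscle level 26 of them had an excess over 1, and 2 were below 0, XM_023057568.1 (-1.57) and the third *fau* transcript (XM_023057308.1, -1.14). In female 2, 28 of these 32 were highest in MP, beside 2 of the 12 with a called slope. In male 1 the numbers were 29 of 32 and 4 of 12. The libraries of these heads were part of the fits that define the classes, so these counts are a description too.

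**Figure D4:**
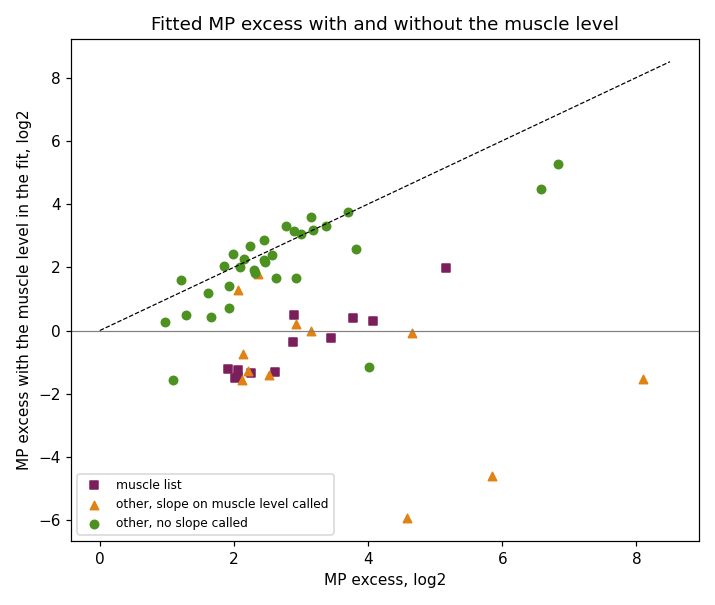
Fitted MP excess (log2 difference between MP and the mean of LatP, LatA and MA over 66 libraries) without the muscle level (x axis) and with it in the fit (y axis), for the muscle list (12 squares), other transcripts with a called slope on the muscle level (12 triangles) and those with none (32 circles). The dashed line marks equal values. The median of the circles is 2.45 without and 2.20 with the muscle level, and that of the squares 2.74 and -0.78.

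Among these 32, *pannier* (XM_023045326.1) was highest in MP in all 11 heads, with 0.0530 to 14.8 CPM (median 3.43), against a median of 0.664 CPM in LatP. In male 1 its MP value, 0.0530 CPM, was under the floor. Its highest animal was at 0.191 CPM in LatA, where the floor is 0.176 to 0.278 CPM, and at 0.00208 CPM in MA. It was 1 of 20 transcripts on a list of dorsal head patterning genes and the only one of them among the 56. Of the 19 others 15 had MP as their highest region, where 4815 of all 15445 expressed transcripts did. LatP was the next highest region in each of the 15, and transcripts of a gene are counted separately. The margins of the 19 ran from -3.42 to 1.07 (median 0.14), and the highest was that of another *pannier* transcript (XM_023045328.1). Levels in MP chose the 56, so this count is a description. The names on this list and on the cuticle list below come from the same study table as those of the muscle list, with the same limit. *four-jointed* (XM_023064681.1), a Golgi kinase of planar polarity and growth, had 8.996 to 97.7 CPM in MP (median 54.9) and was highest there in 11 of 11 heads. Its medians were 8.24 CPM in LatP, 18.1 CPM in LatA and 15.03 CPM in MA, so that LatP was its lowest region.

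Signalling and stress genes followed. A serotonin receptor of the 5-HT2 class (XM_023063195.1) had 0.870 to 17.6 CPM in MP (median 6.07), 0.840 CPM in LatP, 0.250 CPM in LatA and 0.321 CPM in MA. *Gadd45* (XM_023059987.1), a growth arrest and DNA damage gene, had a median of 9.78 CPM in MP, 3.03 CPM in LatP, 0.768 CPM in LatA and 0.905 CPM in MA. Its highest MP value, 23.6 CPM, was that of female 2, the head with the lowest muscle level in MP. An ejaculatory bulb protein III-like transcript (XM_023055299.1), of a family of secreted chemosensory proteins, had 0.356 to 5.91 CPM in MP and at most 1.01 CPM elsewhere. All 4 of these excesses, *four-jointed* included, stayed above 1 with the muscle level in the fit (1.41 to 3.599).

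Cuticle and extracellular matrix genes formed another group. *Chitinase 10* (XM_023061887.1), which cleaves chitin of the moulting cuticle, had 61.0 to 786 CPM in MP (median 214), 73.4 CPM in LatP, 61.4 CPM in LatA and 13.2 CPM in MA, and its excess was 1.93 without and 0.71 with the muscle level. The cuticle protein *Lcp65Ad* (XM_023051466.1) had medians of 6.23 CPM in MP and 0.400 to 1.52 CPM elsewhere. A transcript annotated as neuropeptide-like 3 with a further hit to a cuticle protein (XM_023046178.1) had 13.6 CPM in MP, 3.11 CPM in LatP, 0.807 CPM in LatA and 0.959 CPM in MA. On the list of cuticle names these were 3 of 33 transcripts, and among the 30 others 7 had MP as their highest region, where 4815 of 15445 expressed transcripts did. *Mucin 91C* (XM_023049644.1), a proline-rich extracellular protein, ranged from 0.667 to 46.7 CPM in MP and stayed at or under 1.55 CPM in the anterior regions.

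Transport, cytoskeletal and enzyme genes were the last named group. A trypsin-4-like transcript (XM_023044920.1) was the highest ranked of those outside the muscle list, with 19.6 to 122 CPM in MP (median 30.02) and medians of 3.51 to 6.64 CPM elsewhere. A cystinosin-like transcript (XM_023060525.1), of a family of lysosomal cystine transporters, had a median of 4.99 CPM in MP and 0.289 to 0.400 CPM elsewhere. The microtubule-depolymerising kinesin *Klp10A* (XM_023045470.1) had an isoform with 3.18 CPM in MP and 0.263 to 0.486 CPM elsewhere. A further monocarboxylate transporter 12-like transcript (XM_023056512.1) had 4.24 CPM in MP, 1.21 CPM in LatP, 0.953 CPM in LatA and 0.401 CPM in MA. A transcript annotated as nucleoporin NUP2-like (XM_023045901.1) had 18.5 to 173 CPM in MP (median 96.5), 22.3 CPM in LatP, 10.7 CPM in LatA and 6.42 CPM in MA, with an excess of 2.99 without and 3.06 with the muscle level. Summed with the other transcript of its locus, it had 135 CPM in MP, 36.0 CPM in LatP, 36.2 CPM in LatA and 60.6 CPM in MA, with MA the next highest region and a locus rank of 63. Each of the 5 was highest in MP in 11 of 11 heads. For *Klp10A* this rests in male 2 on 0.208 CPM in MP and 0.194 CPM in MA, values no higher than the floor of the smallest library.

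The other 18 of the 32 have no gene name or only an uncharacterized one. XM_023045904.1, XM_023051557.1, XR_002707647.1, XM_023051741.1, XR_002707108.1 and XM_023057568.1 were highest in MP in all 11 heads. Among these, the noncoding XR_002707108.1 had a median of 246 CPM in MP and 106 CPM in LatP, against 26.1 CPM in LatA and 25.5 CPM in MA. XM_023057568.1 varied widely between heads, with 416 CPM in MP and 348 CPM in MA of female 3 and 9.75 CPM in MP and 3.36 CPM in MA of female 1. The noncoding XR_002706416.1 was the most abundant of all 56, at a median of 623 CPM in MP and 212 to 312 CPM elsewhere, and was highest in MP in 10 heads, as were XM_023047533.1, XM_023062153.1 and XM_023065190.1. XM_023052689.1, XM_023051426.1 and XM_023051862.1 were highest in MP in 9 heads, and XM_023058429.1, XM_023046358.1, XM_023055342.1 and XM_023056669.1 in 6 to 8. The remaining one is the third *fau* transcript.

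RSEM divides reads among the isoforms of a gene, so single isoforms were also set against the sum of their locus. A locus was known for 44 of the transcripts, in 36 loci. When all transcripts of a locus were added together before ranking, 26 of the 36 loci were among the first 60 units. *Myofilin* (rank 2), trypsin-4-like (3), *TpnC47D* (4) and the serotonin receptor (7) headed them. *wupA* fell to rank 79 and *Klp10A* to rank 116, with summed medians for *Klp10A* of 155 CPM in MP, 70.3 CPM in LatP, 95.1 CPM in LatA and 83.6 CPM in MA. In 3 loci the excess was gone. LOC111413729, the neighbour of *tropomyosin 2*, had 1950.4 CPM in MP, 1021 CPM in LatP, 1835 CPM in LatA and 1647 CPM in MA over its 19 transcripts, and the loci of XM_023056669.1 and XM_023055342.1 also had margins below 0 (-0.04 and -0.43). The values of these single isoforms are therefore uncertain.

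Whether the list differs between male and female MP was tested with edgeR over the 11 MP libraries. None of the 56 transcripts was called at an adjusted p under 0.05, where 0.0395% of 12649 transcripts were called higher and 0.0553% lower in males. At an unadjusted p under 0.05 there were 4 of the 56 (7.14%, against 7.98% of all transcripts), and DESeq2 called 2 (3.57%, where it called 1.49% of 12270), *stripe* and XM_023047533.1. *stripe* had 2.67 to 7.64 CPM in MP of the 6 males and 12.2, 10.77, 14.4, 9.70 and 17.3 CPM in MP of the 5 females. The sexes did not overlap, and the log2 fold change (log2FC) was -1.27 ± 0.27 (SE, adjusted p = 0.233, edgeR). XM_023047533.1 had 4.01 to 11.7 CPM in male MP and 271, 105, 14.4, 61.2 and 5.70 CPM in female MP, so that females 1 to 4 stood above every male and female 5 lay within the males (log2FC -3.46 ± 0.84, adjusted p = 0.286, edgeR).

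The sex difference in the MP excess was tested over all 66 libraries as the male minus the female log2 excess. It was called in none of the 56 by edgeR, where 0.0194% of 15445 transcripts were called positive and 0.0518% negative, while 7 of the 56 had an unadjusted p under 0.05 (12.5%, against 4.14% of all transcripts). The median difference was 0.79 over the 56 and 0.00 over all transcripts. It was 1.33 over the 12 of the muscle list and 0.77 over the 44 others. The muscle level of MP minus the mean of the other regions ran from 0.915 to 3.16 in the 6 males (median 1.64, mean 1.82). In the 5 females it ran from -0.0688 to 2.21 (median 1.92, mean 1.60), so medians and means order the sexes differently. The part of the muscle level in the sex difference was not tested. DESeq2 called 2 (3.57%, where it called 0.669% of 15108), XM_023047533.1 and XM_023044823.1. With the animal as replicate block edgeR called 1, XM_023047533.1, with the larger excess in females.

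LatP and LatA entered the ranking only through the highest of the levels outside MP, and the difference between them was tested within each sex. In males 8 of the 50 transcripts tested were higher in LatP at an adjusted p under 0.05 (16.0%, where 3.26% of 13615 were called) and 1 was lower (2.00%, where 2.02% were called). None passed the study's thresholds (adjusted p below 0.001, with a log2FC beyond 2 either way), which 0.602% of all transcripts passed upwards and 0.191% downwards. In females 4 of 54 were higher in LatP (7.41%, where 2.08% of 14584 were called) and none lower (where 1.54% were called). The filter of 1 CPM was passed through LatP alone, with no LatA library over 1 CPM, by 3 of the 8 in males (*mucin 91C*, the second *wupA* isoform and XM_023051862.1) and 3 of the 4 in females (*pannier* and both *wupA* isoforms), and those calls carry no weight in the shares. Among transcripts with a LatA library over 1 CPM, a restriction chosen after the data were seen, 5 of 46 on the list were higher in LatP in males (10.9%, against 2.53% of 13295) and 1 of 47 in females (2.13%, against 1.45% of 13833). These tests count both sides of a head as separate replicates. With both sides added together, 3 calls were left in males and 1 in females (XM_023052689.1). Those in males were *four-jointed*, XM_023051741.1 and *mucin 91C*, the last of them passed through LatP alone in the main fit. Leaving out 1 animal gave 5 calls in males without male 3, male 4 or male 6 and 2 in females without female 4 or female 5. The median log2FC was 0.23 over the list in males and 0.61 in females, beside -0.01 and 0.03 over all transcripts tested.

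*Gadd45* (XM_023059987.1) had 1.36 to 5.65 CPM in male LatP (median 3.19) and 0.210 to 2.55 CPM in male LatA (median 0.696), higher in LatP in 6 of 6 males (log2FC 1.91 ± 0.41, adjusted p = 0.00366, edgeR). This call was lost with both sides added together (adjusted p = 0.128, edgeR). *Mucin 91C* (XM_023049644.1) had 0.254 to 5.28 CPM in male LatP and 0.115 to 0.327 CPM in male LatA, values around the floor. It passed the filter through LatP alone, so its call (adjusted p = 0.00123, edgeR) carries no weight as support. Neither *Gadd45* nor *mucin 91C* was called in females in the main fit, where LatP exceeded LatA in 4 and in 3 of 5 animals. *Gadd45* was called in females with the animal as replicate block and without female 1. Whether these differences differ between the sexes was not tested. The neuropeptide-like 3 transcript (XM_023046178.1, log2FC 1.71, adjusted p = 0.00102), XM_023051741.1 (1.43, adjusted p = 0.000345), XM_023051557.1 (1.16, adjusted p = 0.0274), XR_002707108.1 (1.28, adjusted p = 0.0489), the second *wupA* isoform (XM_023057670.1, adjusted p = 0.0314) and XM_023051862.1 (adjusted p = 0.0494) were the others called higher in male LatP. The male LatA pieces all stood at 0 for XM_023051862.1, whose 6 male LatP values ran from 0 to 1.73 CPM, and that call was lost under 11 of the 12 alternatives that gave a value. The calls of XM_023051557.1, XM_023057670.1 and XR_002707108.1 were kept under 7, 7 and 5 of 13 alternatives. That of the neuropeptide-like 3 transcript was lost with both sides added together (adjusted p = 0.0508, edgeR).

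The 1 transcript lower in LatP was *four-jointed* (XM_023064681.1). It had 4.75 to 9.02 CPM in male LatP (median 8.16) and 9.86 to 22.3 CPM in male LatA (median 19.5). The animals did not overlap, LatP was lower in 6 of 6 males, and the log2FC was -1.27 ± 0.23 (SE, adjusted p = 0.000625, edgeR). The call held under all 13 alternatives. In females it had 2.93, 6.88, 25.3, 11.9 and 21.1 CPM in LatP and 3.94, 5.80, 28.5, 16.4 and 18.1 CPM in LatA, with LatP higher in 2 of 5 animals and no call.

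In females the uncharacterized XM_023052689.1 gave the clearest difference. It had 6.46, 11.3, 17.6, 11.2 and 5.56 CPM in LatP and 0.968, 2.08, 0.994, 1.18 and 0.676 CPM in LatA of females 1 to 5, with no overlap (log2FC 3.15 ± 0.32, adjusted p = 5.91e-06, edgeR), and was the only one of the list past the study's thresholds (1.85% of 54, where 0.329% of all transcripts passed upwards and 0.096% downwards). Males had 1.503 to 5.15 CPM in LatP and 0.316 to 3.27 CPM in LatA, with LatP higher in 6 of 6 males as well (adjusted p = 0.0906). It was called in males too by DESeq2, with the animal as replicate block, with the muscle level as a covariate, and without male 1 or its MA and right LatA pieces. Both *wupA* isoforms were called higher in female LatP, though like *pannier* they passed the filter through LatP alone. The first had 0.531, 0.0569, 1.61, 3.39 and 3.65 CPM in LatP and at most 0.0431 CPM in LatA (XM_023057671.1, adjusted p = 0.00183), and the second 1.41, 0.0819, 5.76, 8.42 and 16.6 CPM in LatP and at most 0.193 CPM in LatA (XM_023057670.1, adjusted p = 0.00366, lost without female 4 or female 5 at 0.0507 and 0.0722). The muscle level of female LatP ran from 1.72 to 3.43 and that of female LatA from 1.80 to 2.98, and with the muscle level as a covariate, added after the data were seen, 3 of the 4 female calls remained. In males the covariate gave 12 calls, with XM_023051862.1 lost and 4 gained, XM_023052689.1 and, lower in LatP and on the muscle list, a *Mlp84B* isoform (XM_023064398.1), *Mlc1* and *tropomyosin 2*. The exception in females was *pannier* (XM_023045326.1), at 0.0233, 0.00827, 2.08, 1.02 and 3.04 CPM in female LatP and at most 0.00284 CPM in female LatA (adjusted p = 0.0497), a call kept under 2 of 11 alternatives. Fitted fold changes of transcripts near 0 in LatA depend on the prior count and are not given. With the animal as replicate block 8 of the list were called higher in female LatP, of which 3 were among the 4, *pannier* being lost. In males the block lost XM_023051862.1 and the second *wupA* isoform. The block gained XM_023052689.1, the serotonin receptor, the NUP2-like transcript and *pannier*, whose male LatA values were at most 0.191 CPM.

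**Figure D5:**
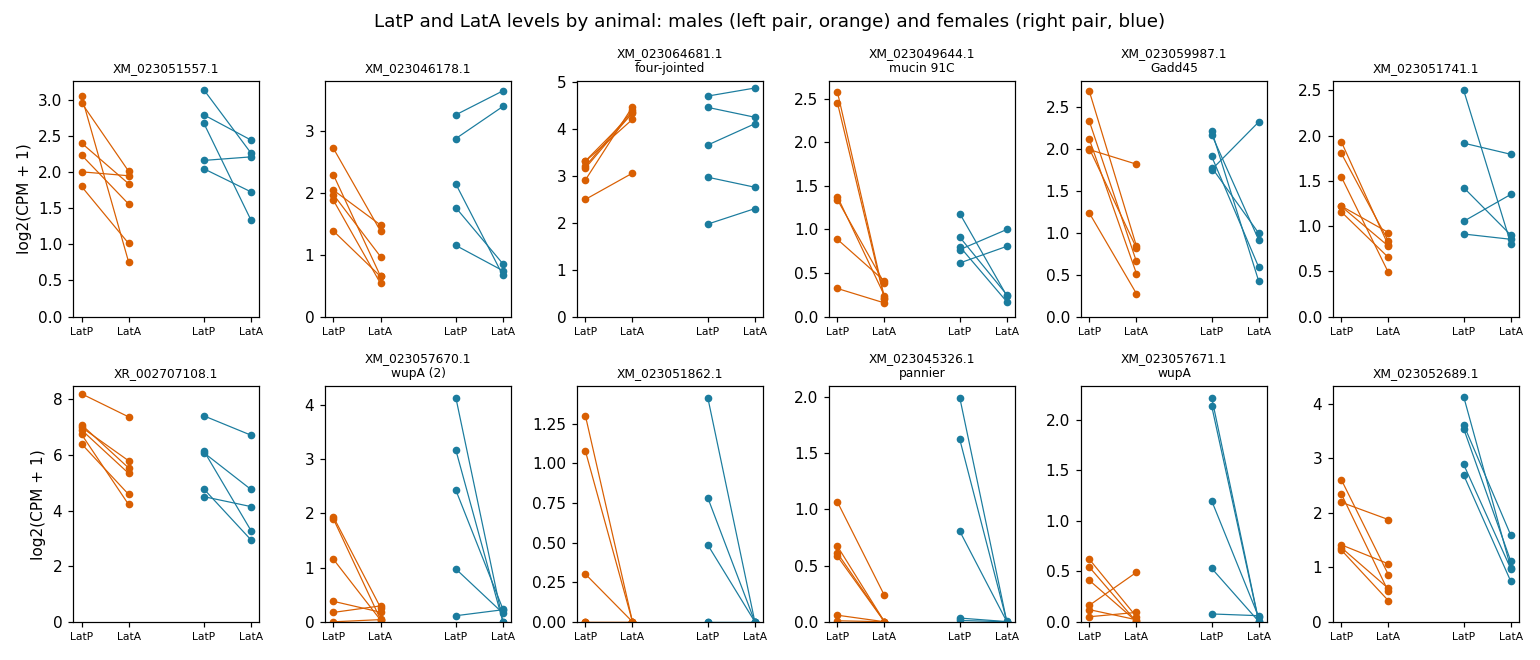
Levels as log2(CPM + 1) in LatP and LatA of each animal, joined by a line, for the 12 transcripts of the list called between LatP and LatA in either sex, with 6 males (orange) left of 5 females (blue). The lines fall from LatP to LatA in all males for Gadd45 and mucin 91C, rise in all 6 males for four-jointed, and fall in all 5 females for XM_023052689.1.

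Between LatA and MA no transcript of the list was called in either sex by edgeR, of 46 tested in males (0% of 13158 called) and 47 in females (where 0.0298% of 13420 were called higher). At an unadjusted p under 0.05 there were 6 in each sex (13% in males, against 4.75% of all transcripts, and 12.8% in females, against 3.36%). Those in females include both *myofilin* isoforms and XM_023046129.1, at 34.2, 69.0 and 10.5 CPM in the muscle-rich MA piece of female 4. In MA of the other females they reached at most 1.55, 3.72 and 0.535 CPM, so these rest on 1 library. DESeq2 called 1 in males (2.22%, where it called 0.424% of 12737) and 0 in females (where it called 0.339% of 12998). The 1 was XM_023052689.1, lower in LatA than in MA with a log2FC of -2.15 (adjusted p = 0.415 by edgeR), and edgeR called it as well once the right LatA library and the MA library of male 1 were left out.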

How the data were processed

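The authors trimmed single-end stranded reads with Trimmomatic 0.32, aligned them with bowtie2 2.3.2 against NCBI gene models of the beetle and used RSEM 1.3.0 for estimated counts (versions from the submitters' processing notes and the study's methods). They deposited expected counts of 23725 transcripts in 66 libraries, not normalized, of which 74.3% are whole numbers. No library was left out and no 2 held identical values. Rounded counts entered edgeR 4.0.16 under R 4.3.3 (TMM, quasi-likelihood F-test, Benjamini-Hochberg adjustment over all transcripts that exceeded 1 CPM in 2 or more compared libraries), and adjusted p-values without a tool name are edgeR's. The scripts were tested on simulated data. Left and right pieces counted as separate replicates, as in the study, although they share an animal, so p-values of lateral comparisons are too small where sides are alike. Pieces of 1 animal were correlated after the means of sex and region were removed (mean r = 0.32, against -0.10 between animals of 1 sex), and the number in the labels names that animal. Gene names are best hits in the study's supplementary table, and loci and neighbours come from RefSeq assembly IU_Otau_3.0, a later build. The members and lists were chosen with earlier results of these data known. Values are written out for the 20 transcripts with the largest margin, those on a gene list, those called in a test and those at the edge of the ranking, and further ones were named after their values were seen. Alternatives were DESeq2 1.42.0, RLE size factors, the animal as replicate block, a filter on summed counts of 2 or more, added sides, other muscle levels, a pseudocount of 0.1 in place of 1, plain totals and each animal left out.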

Additional observations from a re-analysis of the deposited data

Results flagged for a closer look

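MP levels of the 56 transcripts by sex, with the muscle level by region and sex, made 120 groups that were searched for an animal far from the others. Chance flags about 1 in 20 groups, and 6 of 120 were flagged. Levels here are log2(CPM + 1). In male MP, XM_023058429.1 stood at 0.24 in male 3, against 4.32 to 5.25 in the other males. XM_023051426.1 stood at 0 in male 4, against 2.73 to 3.31 in the other males. XM_023062153.1 stood at 6.57 in male 2, against 5.05 to 5.46 in the other males. In female MP, XM_023061477.1 stood at 5.54 in female 4 and at 0 in the other females. The muscle level of LatA was 2.98 in female 2, against 1.80 to 2.11 in the other females. The muscle level of MA was 4.34 in female 4, against 1.45 to 1.89 in the other females.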

How the results depend on the processing

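The list kept 47 to 53 of its 56 transcripts when 1 animal was left out and 51 with plain library totals. It kept 34 with a pseudocount of 0.1, 29 in females alone and, as an alternative added later, 44 with a locus counted as one. DESeq2 called 2 transcripts between male and female MP, 2 for the sex difference in the MP excess and 1 between LatA and MA in males, where edgeR called 0 of each. It called 13 with a slope within MP, where edgeR called 4. The replicate block gave 1 call for the sex difference in the MP excess and 8 for LatP with LatA in females. In males it gave 11 beside 9, and it changed the count by no more than 1 elsewhere. Left and right libraries added together left 3 calls for LatP with LatA in males, against 9, and 1 in females, against 4. With male 1's MA and right LatA pieces left out, 1 transcript was called between LatA and MA in males. Leaving out 1 animal gave 5 to 10 calls for LatP with LatA in males (5 without male 3, male 4 or male 6), 2 to 5 in females (2 without female 4 or female 5), 0 to 1 for LatA with MA in males (1 without male 1), 1 to 3 slopes within MP (1 without female 2 or male 4) and 6 to 11 outside MP (6 without female 2). It gave 0 in every case for the sexes in MP, the sex difference in the MP excess and LatA with MA in females. RLE size factors and the wider filter moved no count by over 1.5 times, and no named call changed direction. In simulated counts of like dispersion, more unchanged transcripts were called between LatP and LatA than the adjusted p promises, so single calls near 0.05 are weak. Depth limits transcripts under 0.278 CPM.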
